A study of Mus musculus with 24 samples.

Results

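Genes of DNA replication and mitosis were followed in mouse kidney through ureter obstruction and its reversal. The set was a list of 47 genes chosen by function, and its members were the rows of the deposited expression table that carry those symbols, 45 genes among 14785. Cdc6 and Bub1 had no row and are not analysed here. The animals were male C57/BL6 mice, 8 weeks old per the labels, with 4 animals in each of 6 groups, selected from the 10 operated per group by a criterion the labels do not give. Sham mice had sham surgery, and the time after it is not stated. UUO2 and UUO7 mice had the ureter of a kidney ligated for 2 and 7 days (unilateral ureter obstruction, UUO). R1W, R2W and R4W mice had the ureter reimplanted after 7 days of ligation and recovered for 1, 2 and 4 weeks. No mouse carried a transgene or received a drug per the labels. The replicate of R4W numbered 2 is placed at 4 weeks by its title and at 2 weeks by its treatment label, and it was grouped by title.

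Most cells of the adult kidney are quiescent, and after injury surviving tubule cells, interstitial cells and immune cells can enter the cell cycle. A dividing cell first licenses its replication origins by loading the MCM2-7 helicase, with Cdt1 as loading factor and geminin (Gmnn) as its inhibitor. Cyclin E with Cdk2 and the E2F factors then start S phase, in which ribonucleotide reductase (Rrm1, Rrm2), thymidylate synthase (Tyms) and thymidine kinase (Tk1) supply nucleotides and PCNA clamps the polymerases to DNA. Cyclins A and B with Cdk1 drive the entry into mitosis, the kinetochore and its checkpoint control the separation of the chromosomes, and kinesins of the spindle carry out the division. The transcripts of many of these genes are made mainly in cycling cells, so Mki67 and Top2a are in common use as proliferation markers. In whole kidney, fewer or more cycling cells and less or more RNA per cycling cell cannot be told apart.

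The tissue is called kidney in the labels and cortical kidney in the title of the study. Proximal tubule markers, 6 of 6 with a row, summed to 3593 to 4146 FPKM (fragment counts scaled by transcript length and sequencing depth, the unit inferred for the table) in the sham libraries and to 873 to 1064 FPKM in the UUO7 libraries. Whole-read steps in the low values implied 24670000 to 35510000 fragments in the 20 libraries outside UUO2. The 4 UUO2 libraries showed no such steps, so their depth is unknown. Their mitochondrial ribosomal RNA mt-Rnr1 lay between 2343 and 2832 FPKM, against 342 to 709 FPKM in the other libraries, and the design text speaks of 20 libraries sequenced as a set, not 24. Obstruction for 2 days and a difference in how those libraries were made cannot be told apart. Sham replicate 2 and R4W replicates 1 and 3 held adipocyte marker sums of 129, 885 and 256 FPKM, while no other library passed 14.9 FPKM. An FPKM value is a share of its library. The median gene was 0.42 higher on the log2 scale in UUO7 than in sham, so each difference was also computed after rescaling the libraries to a common median.

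Promoters of the members carried sequence words that differed between the replication genes and the mitosis genes. Mitotic genes are known for the CHR element (TTTGAA) near the start of transcription, often with CCAAT boxes, and S phase genes for E2F sites. RefSeq windows (GRCm38.p6, 250 bases before to 50 after the start, both strands searched) were matched for 36 members. TTTGAA was in 15 of 18 windows of G2, mitosis and marker genes (83.3%) and in 2 of 18 windows of replication and G1 to S genes (11.1%), beside 11.9% of 10652 genes with a window. The E2F words TTTCCCGC, TTTCGCGC, TTTGCCGC and TTTGGCGC, counted as a single class, were in 1 of 18 (5.56%) and 6 of 18 (33.3%) windows, beside 3.91% of all genes. CCAAT was in 16 of 18 (88.9%) and 11 of 18 (61.1%), beside 38.1% of all genes. CHR and CCAAT occurred together in 14 of 18 (77.8%) and 2 of 18 windows, beside 4.84% of all genes. These matches are a description of letters, not of bound sites, and no test was made of them.

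Of these promoters, 4 of the G2, mitosis and marker group and 2 of the replication group are shown to let the words be compared, chosen after the matches were known. Each line gives the bases upstream of the transcribed gene, 5′ to 3′ on the gene's strand, and capitals mark the matched words in either orientation. Positions count back from the RefSeq start.
Mki67: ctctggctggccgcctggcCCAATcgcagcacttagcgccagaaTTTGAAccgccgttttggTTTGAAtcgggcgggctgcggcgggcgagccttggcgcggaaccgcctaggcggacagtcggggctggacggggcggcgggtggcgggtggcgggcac
Top2a: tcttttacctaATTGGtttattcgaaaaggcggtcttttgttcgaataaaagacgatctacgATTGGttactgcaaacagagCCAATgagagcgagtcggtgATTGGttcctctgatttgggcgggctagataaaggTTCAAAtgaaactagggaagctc
Cdk1: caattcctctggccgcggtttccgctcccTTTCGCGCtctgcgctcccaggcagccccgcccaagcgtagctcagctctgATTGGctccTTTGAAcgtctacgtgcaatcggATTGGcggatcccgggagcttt
Kif11: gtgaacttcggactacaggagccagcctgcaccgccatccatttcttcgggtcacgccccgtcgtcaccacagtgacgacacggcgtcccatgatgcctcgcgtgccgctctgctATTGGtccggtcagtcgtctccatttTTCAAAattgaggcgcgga
Mcm6: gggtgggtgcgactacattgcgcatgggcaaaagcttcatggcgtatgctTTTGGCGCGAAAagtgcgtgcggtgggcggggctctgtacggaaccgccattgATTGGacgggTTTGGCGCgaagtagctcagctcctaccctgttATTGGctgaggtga
Mcm5: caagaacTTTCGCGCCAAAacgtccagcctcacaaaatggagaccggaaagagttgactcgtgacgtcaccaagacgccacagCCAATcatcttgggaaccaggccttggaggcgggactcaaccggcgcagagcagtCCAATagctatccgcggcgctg
The Mki67 window (chr7:135716380-135716539, minus strand) holds TTTGAA at -116 and -98. The Top2a window (chr11:99024190-99024349, minus strand) holds the reverse complement of TTTGAA at -23 and 4 CCAAT words at -149, -98, -78 and -58. The Cdk1 window (chr10:69352939-69353072, minus strand) holds an E2F word at -131, CCAAT words at -80 and -48, and TTTGAA at -71. The Kif11 window (chr19:37376222-37376381, plus strand) holds a CCAAT word at -45 and the CHR word at -19. The replication promoters were picked among the 6 windows with an E2F word, and both lack TTTGAA in the window shown. Of the other replication genes, Mcm2 and Cdc45 hold TTTGAA and no E2F word. In Mcm6 (chr1:128359706-128359865, minus strand) E2F words stand at -110, -106 and -47, of which the first pair overlap in opposite orientation. In Mcm5 (chr8:75109349-75109508, plus strand) they stand at -153 and -149 and also overlap.

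Across the 6 groups the members were low in sham kidneys, high at 2 and 7 days of obstruction, and in recovery below the UUO7 mean. For some members, among them Mcm7, Pcna, Cdk2 and Gmnn, the R1W mean was above the UUO2 mean. The sham mean was the lowest of the 6 group means for 44 of 45 members, an order that held for 49.4% of all genes, and the exception was Gmnn. The UUO7 mean was the highest for 35 members (36.1% of all genes) and the UUO2 mean for the other 10 (11.5%). The summed level of the members was 133.6 to 151.4 FPKM in the sham libraries, 279.7 to 496.8 in UUO2, 482.1 to 548.7 in UUO7, 299.3 to 391.2 in R1W, 257.4 to 383.5 in R2W and 209.6 to 295.3 FPKM in R4W. No library of an obstructed or recovering kidney reached down to the sham range in this sum.

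**Figure D1:**
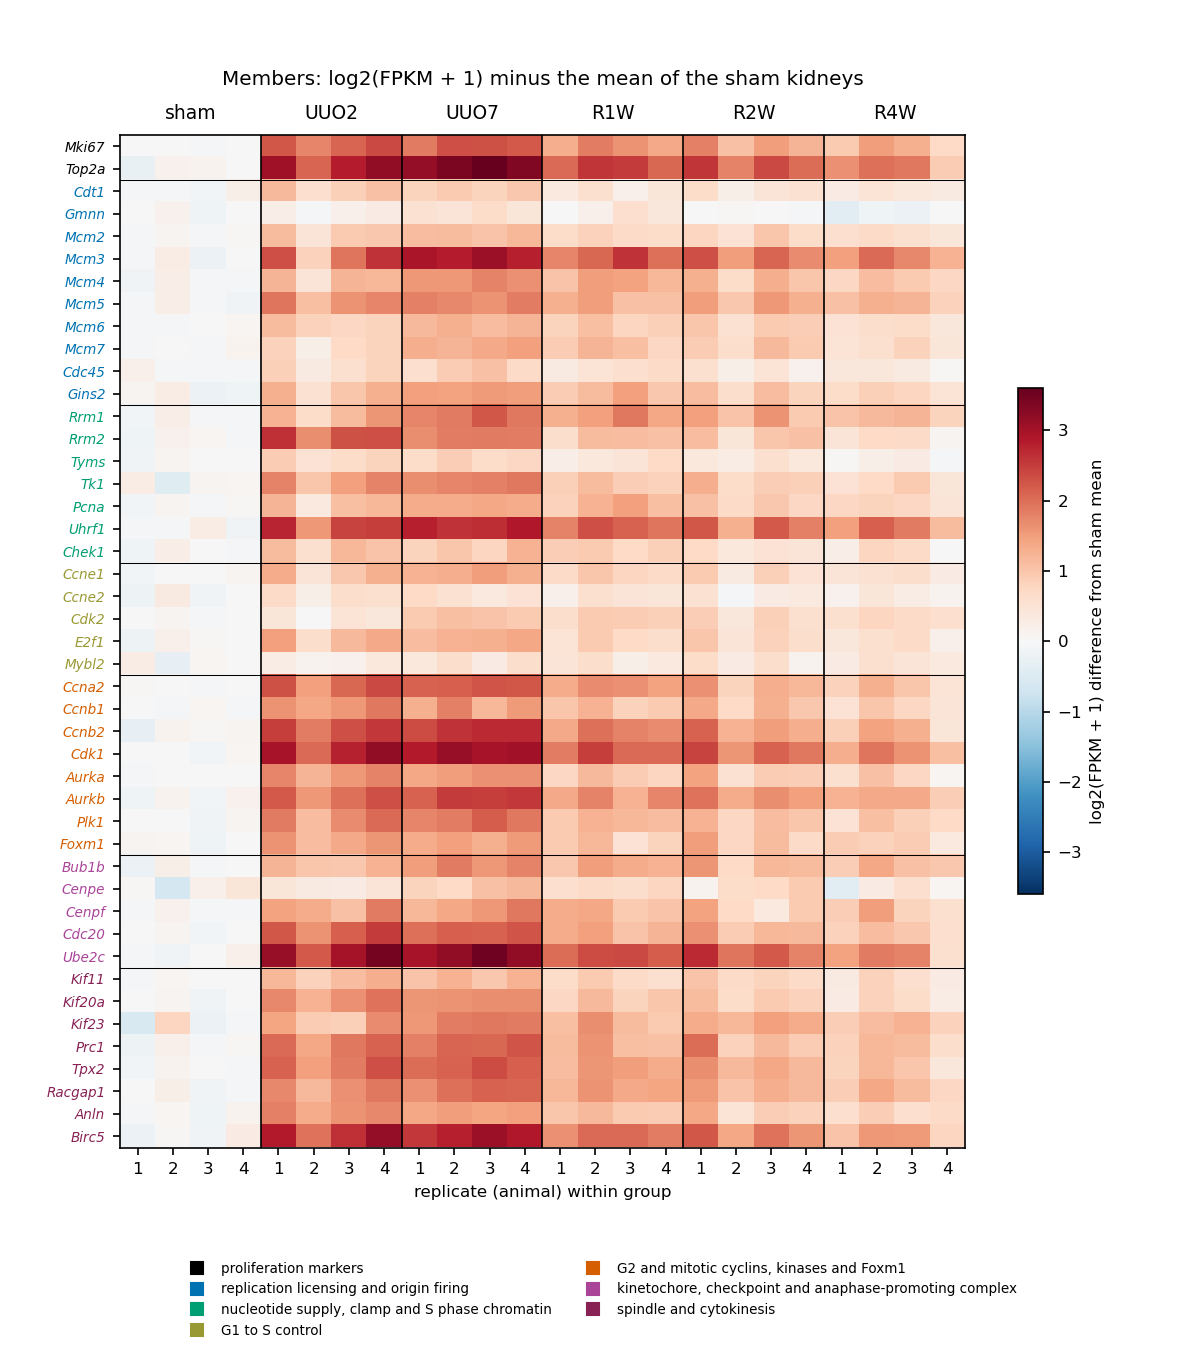
Heat map of the 45 members (rows, grouped by role through the colour of the symbol) in the 24 libraries (columns, replicates 1 to 4 of each group); colour is log2(FPKM + 1) minus the mean of the 4 sham libraries. The columns of UUO2 and UUO7 are the darkest, UUO2 replicate 2 is paler than its group, and Top2a, Cdk1, Ube2c, Mcm3, Uhrf1 and Birc5 are the rows with the strongest colour.

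The table keeps genes whose mean over all libraries is at least 1 FPKM, and 18 of the 45 members had a sham mean under 1 FPKM, so these passed only through the groups in which they were higher. Counts over the 45 members are therefore given as a description. The 27 members with a sham mean of at least 1 FPKM, which the minimum did not select for a rise, are counted beside them.

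The proliferation markers were low in sham libraries and higher in every other library. Mki67, the antigen of cycling cells (chr7:135689784-135716361), stood at 0.40, 0.38, 0.34 and 0.40 FPKM in sham replicates 1 to 4, at 5.46, 3.70, 4.91 and 6.12 in UUO2, and at 4.01, 5.88, 5.78 and 5.34 in UUO7. In recovery its values were 2.39, 3.90, 3.24 and 2.54 FPKM at 1 week (R1W), 3.88, 1.86, 2.92 and 2.23 at 2 weeks (R2W), and 1.65, 2.95, 2.32 and 1.29 at 4 weeks (R4W). Every library outside sham was above every sham library. Top2a, the topoisomerase that untangles sister chromosomes (chr11:98992943-99024189), stood at 0.900, 1.55, 1.48 and 1.30 FPKM in sham, at 18.1, 8.75, 15.4 and 20.1 in UUO2, and at 19.7, 23.1, 27.2 and 22.0 in UUO7. It then stood at 8.42, 12.7, 12.1 and 8.65 FPKM at 1 week, 12.8, 6.97, 10.8 and 8.16 at 2 weeks, and 6.13, 8.01, 7.61 and 3.35 at 4 weeks. The recovering groups lay between sham and UUO7 without touching either.

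The question of the obstruction groups was how far injury moved these genes from the sham level. At 2 days, limma on log2(FPKM + 1) called 42 of 45 members higher at an adjusted p under 0.05 and 0 lower, where 32.3% of all 14785 genes were higher and 17.0% lower. The members' median difference was 1.43 on the log2 scale, beside 0.09 for all genes. Gmnn, Mybl2 and Cenpe did not pass. Of the 27 members detected in sham, 24 were called higher, beside 32.1% of 13182 genes of that kind. At 7 days, 45 members were called higher, beside 60.1% of all genes, with a median of 1.64 against 0.42. All 27 members detected in sham were called higher, beside 57.0%. With a minimum log2 difference of 1 the counts were 36 members and 21.8% of genes, and after rescaling 30 members and 13.4%.

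Ube2c, Cdk1 and Birc5 were among the members with the largest rises. Ube2c, the ubiquitin-conjugating enzyme of the anaphase-promoting complex, stood at 0.920, 0.840, 0.980 and 1.24 FPKM in sham, at 16.5, 8.19, 14.7 and 20.8 in UUO2, and at 14.4, 17.3, 21.4 and 17.3 in UUO7. Cdk1, the kinase of mitotic entry (chr10:69335146-69352938), stood at 1.61, 1.67, 1.47 and 1.75 FPKM in sham, at 19.6, 9.69, 16.8 and 22.9 in UUO2, and at 18.1, 22.1, 19.6 and 20.2 in UUO7. Birc5 (survivin), a subunit of the chromosomal passenger complex, stood at 1.31, 1.75, 1.45 and 2.25 FPKM in sham, at 18.3, 9.34, 15.6 and 22.8 in UUO2, and at 14.6, 17.5, 21.4 and 18.7 in UUO7. In each of the 3 genes the sham libraries were apart from all obstructed ones, and UUO2 replicate 2 was the lowest obstructed library. At 7 days Top2a was 3.38 ± 0.24 (SE) above sham on the log2 scale, Ube2c 3.21 ± 0.25, Cdk1 3.00 ± 0.21 and Birc5 2.83 ± 0.22, with limma adjusted p from 1.57e-10 to 7.65e-10. At 2 days the differences of the same genes were 2.80, 2.95, 2.74 and 2.65.

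**Figure D2:**
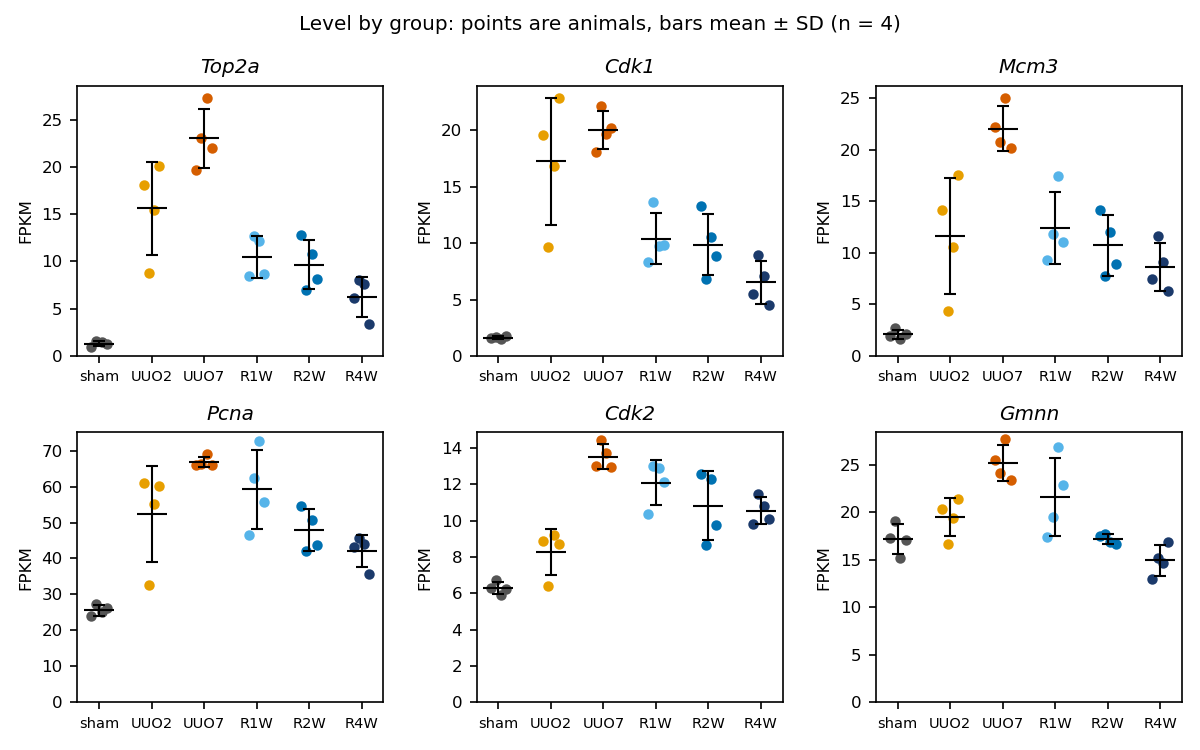
FPKM of Top2a, Cdk1, Mcm3, Pcna, Cdk2 and Gmnn by group; points are the 4 animals of a group, the horizontal line is the mean and the bars are the SD. Top2a, Cdk1 and Mcm3 are far above sham in UUO7 and in between in recovery, Cdk2 in UUO2 lies closer to sham (8.28 FPKM against 6.30) than to UUO7 (13.5), and Gmnn returns to or under its sham mean in R2W and R4W.

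The G2 and mitotic list (cyclins A2, B1 and B2, Cdk1, Aurora kinases, Plk1 and Foxm1) was called higher in 8 of 8 members at both times of obstruction, beside 32.3% and 60.1% of all genes, with medians of 1.85 and 2.06. Of these 8 members 6 had a sham mean under 1 FPKM, and the other 2 were called higher at both times. Foxm1, the transcription factor of G2 and mitotic genes, had the smallest difference of this list at 7 days in log2(FPKM + 1), which understates low genes. Its values were 0.590, 0.580, 0.350 and 0.490 FPKM in sham, 3.62, 2.27, 2.85 and 3.54 in UUO2, and 2.82, 3.21, 2.63 and 3.37 in UUO7. The log2 difference from sham was 1.43 at 2 days and 1.41 at 7 days. The spindle and cytokinesis list (kinesins Kif11, Kif20a and Kif23, the bundling protein Prc1, and Tpx2, Racgap1, Anln and Birc5) was called higher in 8 of 8 at both times, with medians of 1.63 and 1.88, and so were the 4 of its members detected in sham (32.1% and 57.0% of genes of that kind). Kif11, the kinesin that separates spindle poles, stood at 0.250, 0.340, 0.280 and 0.270 FPKM in sham, at 1.97, 1.28, 1.79 and 2.21 in UUO2, and at 1.62, 2.07, 1.51 and 2.03 in UUO7, a log2 difference from sham of 1.12 at each time.

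Cenpe was the kinetochore member with the smallest rise. Cenpe is the motor that moves chromosomes to the spindle equator. Its values were 1.22, 0.380, 1.44 and 1.90 FPKM in sham, 1.92, 1.68, 1.64 and 1.95 in UUO2, and 2.76, 2.57, 3.50 and 3.85 in UUO7. The UUO2 libraries overlapped the sham libraries, and the UUO7 libraries did not. The log2 difference at 7 days was 0.94 ± 0.21 (SE; limma adjusted p = 0.000315). The other members of its list were the checkpoint kinase Bub1b, the kinetochore protein Cenpf, the anaphase activator Cdc20 and Ube2c. They were called higher at both times, beside 32.3% and 60.1% of all genes. Of the 5 members, 3 had a sham mean under 1 FPKM. Of the 2 detected in sham, 1 was called higher at 2 days and 2 at 7 days (32.1% and 57.0% of genes of that kind).

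Of 10 licensing genes, all with a sham mean of at least 1 FPKM, 9 were called higher at 2 days (32.3% of all genes) and 10 at 7 days (60.1%), or 9 at 7 days after rescaling (36.5%). Mcm3, a subunit of the helicase (chr1:20802968-20820312), stood at 1.91, 2.70, 1.63 and 2.09 FPKM in sham, at 14.2, 4.40, 10.6 and 17.5 in UUO2, and at 22.3, 20.8, 25.0 and 20.2 in UUO7. Mcm7, another subunit (chr5:138164583-138172422), stood at 11.8, 12.4, 11.6 and 13.4 FPKM in sham, at 22.4, 14.3, 20.6 and 22.1 in UUO2, and at 31.9, 29.9, 32.9 and 35.8 in UUO7. For both genes the 3 groups did not overlap. Mcm3 differed from sham by 1.91 at 2 days and 2.91 ± 0.28 (SE) at 7 days, and Mcm7 by 0.63 and 1.34 ± 0.13. The list median over 10 members was 0.90 at 2 days and 1.27 at 7 days.

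Geminin, the inhibitor of Cdt1, moved least among the licensing genes. Gmnn (chr13:24751845-24761923) stood at 17.4, 19.1, 15.2 and 17.1 FPKM in sham, at 20.3, 16.7, 19.4 and 21.4 in UUO2, and at 25.5, 24.2, 27.7 and 23.4 in UUO7. Its log2 difference at 7 days was 0.53 ± 0.11 (SE; limma adjusted p = 0.00012), close to the 0.42 by which the median gene moved. After rescaling the difference was 0.06 and was not called.

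The nucleotide supply and S phase list was called higher in 7 of 7 members at both times, and so were the 5 of them detected in sham, beside 32.3% and 60.1% of all genes and 32.1% and 57.0% of those detected in sham. Pcna, the sliding clamp (chr2:132249162-132253314), had the highest level of all members. It stood at 23.9, 27.4, 25.0 and 26.1 FPKM in sham, at 61.0, 32.6, 55.3 and 60.2 in UUO2, and at 66.0, 66.3, 69.0 and 66.1 in UUO7, with log2 differences from sham of 0.96 and 1.35. Uhrf1, which carries DNA methylation through replication, stood at 0.620, 0.620, 1.03 and 0.560 FPKM in sham, at 10.3, 3.99, 8.24 and 8.62 in UUO2, and at 10.7, 9.38, 9.66 and 11.6 in UUO7. Its differences from sham were 2.31 and 2.73. Tyms, at 9.77, 11.8, 10.9 and 10.9 FPKM in sham, 21.1, 16.0, 17.5 and 19.6 in UUO2 and 17.7, 20.7, 17.5 and 18.8 in UUO7, differed from sham by 0.73 ± 0.11 (SE) at 7 days, the smallest difference of the list.

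The G1 to S list had the lowest medians of the role lists, 0.52 at 2 days and 0.99 at 7 days, with 4 and 5 of 5 members called higher (32.3% and 60.1% of all genes) and 2 and 3 of the 3 detected in sham (32.1% and 57.0% of genes of that kind). Cdk2, the kinase partner of cyclin E, stood at 6.32, 6.75, 5.90 and 6.22 FPKM in sham, at 8.86, 6.39, 9.19 and 8.69 in UUO2, and at 13.0, 14.4, 13.7 and 12.9 in UUO7. UUO2 replicate 2 lay within the sham range, and the UUO7 libraries were apart from the rest. Its log2 differences were 0.34 at 2 days and 0.99 ± 0.11 (SE) at 7 days. Ccne1 (cyclin E1) stood at 0.290, 0.390, 0.370 and 0.480 FPKM in sham, at 2.49, 0.900, 1.72 and 2.35 in UUO2, and at 2.31, 2.43, 2.90 and 2.36 in UUO7, a difference of 1.34 at 7 days. Mybl2, a factor of the complex that activates G2 genes, stood at 1.53, 0.710, 1.22 and 1.09 FPKM in sham, at 1.57, 1.30, 1.35 and 1.76 in UUO2, and at 1.74, 2.31, 1.62 and 2.30 in UUO7. Its difference at 7 days was 0.49 ± 0.14 (SE; limma adjusted p = 0.00242) and after rescaling 0.20, which was not called.

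Between 2 and 7 days the members split, and the split depended on the scaling and on UUO2 libraries that stand apart from the rest. As deposited, 14 members were higher at 7 days, where 52.0% of all genes were higher, and 1, Rrm2, was lower, where 14.7% of genes were. After rescaling, 4 were higher (30.0% of genes), namely Mcm3, Mcm7, Cdk2 and Rrm1. Lower were 5 (31.9% of genes), namely Rrm2, Cdt1, Tyms, Anln and Ccnb1. Of the 27 members detected in sham, 12 were higher and 1 lower as deposited (49.2% and 16.0% of genes of that kind). After rescaling 4 of these 27 were higher and 3 lower (25.7% and 35.2%). The authors' deposited table held 2 higher members, Bub1b and Cdk2 (27.9% of the genes with a p higher), and 11 lower members (33.7%). The log2 difference of 7 against 2 days was 1.00 ± 0.28 (SE) for Mcm3, 0.71 ± 0.13 for Mcm7, 0.66 ± 0.11 for Cdk2 and 0.78 ± 0.18 for Rrm1, and after rescaling 0.67, 0.37, 0.33 and 0.45. Rrm2, the S phase subunit of ribonucleotide reductase, averaged 14.0 ± 3.81 FPKM (SD, n = 4) at 2 days and 9.86 ± 0.667 at 7 days, a difference of -0.42 ± 0.18 (SE; limma adjusted p = 0.0412) and of -0.75 after rescaling. Its partner Rrm1 averaged 13.1 ± 3.70 and 22.6 ± 3.54 FPKM. UUO2 replicate 2 was the lowest UUO2 library for 40 of 45 members, as for 40.2% of all genes. Without it, 9 members were called higher in place of 14, and the share of all genes in that fit is not given here.

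**Figure D3:**
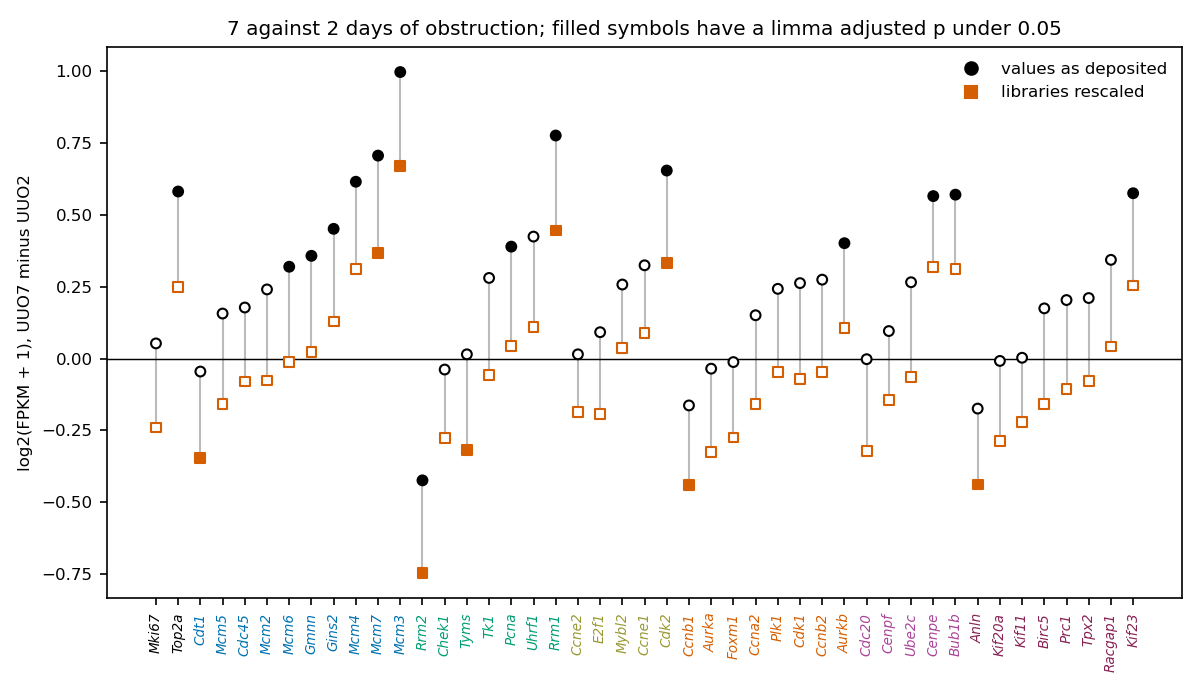
Difference in log2(FPKM + 1) between UUO7 and UUO2 for each member, ordered by role and then by size; circles are deposited values, squares are rescaled libraries, and filled symbols have a limma adjusted p under 0.05. Mcm3, Rrm1, Mcm7 and Cdk2 are filled above 0 on both scales, Rrm2 is filled below 0 on both, and the other filled symbols appear on a single scale.

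The level reached at 2 days, as a share of the rise from sham to the 7-day mean, varied by role. The median share was 81.4% over the members. It was 62.8% for licensing genes, 70.0% for the G1 to S list, 77.4% for the nucleotide and S phase list, 84.7% for the kinetochore list and 87.6% for the G2 list and for the spindle list. After rescaling the median over the members was 110.5%, with 95.0% for licensing genes, 93.5% for the G1 to S list and 115.4% for the G2 list, so for the median member the higher time turned with the scaling, while the licensing and G1 to S medians stayed under the full 7-day rise on both scales. These shares were not tested.

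The recovery groups address how fast the rise was undone once the ureter was open. At 1 week, 26 of 45 members were lower than in UUO7, where 8.04% of all genes were, and 0 were higher (6.47% of genes). The members' median difference was -0.55, beside -0.02 for all genes. By role, 7 of 8 G2 genes, 7 of 8 spindle genes, both markers, 4 of 10 licensing genes, 2 of 7 nucleotide and S phase genes, 2 of 5 kinetochore genes and 2 of 5 G1 to S genes passed. The difference between these shares was not tested. Of the 27 members detected in sham, 14 were lower, beside 7.87% of genes of that kind. Top2a fell by 1.08 on the log2 scale, Ube2c by 0.98, Birc5 by 0.93, Cdk1 by 0.90, Mki67 by 0.64, Ccne1 by 0.56, Foxm1 by 0.55 and Kif11 by 0.40, with limma adjusted p from 0.00573 to 0.0389. The count was 14 without R1W replicate 1, 15 without R1W replicate 4 and 17 without UUO7 replicate 4.

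More members were lower than in UUO7 at the later times, as were more of all genes. At 2 weeks 38 members were lower than at 7 days of obstruction (21.5% of all genes), with a median of -0.58 against -0.06, and 25 without R2W replicate 2. After rescaling the members' median was -0.50 at 1 week and at 2 weeks. At 4 weeks 43 were lower (30.8% of all genes), with a median of -0.80 against -0.08. The members not called at 4 weeks were Mybl2 and Ccne2, the latter encoding cyclin E2. Of the 27 members detected in sham, 24 were lower at 2 weeks and 26 at 4 weeks, beside 21.8% and 30.6% of genes of that kind. Ube2c was 1.79 lower than in UUO7 on the log2 scale, Top2a 1.77, Birc5 1.60, Cdk1 1.52 and Mcm3 1.29 lower, while Mcm7 was 0.75, Gmnn 0.72, Tyms 0.61 and Cdk2 0.33 lower.

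In recovery Cdk1, Ube2c and Birc5 lay between the sham and the UUO7 libraries. Cdk1 stood at 8.34, 13.7, 9.78 and 9.79 FPKM in R1W and at 13.3, 6.84, 10.5 and 8.82 in R2W. Ube2c stood at 7.00, 9.16, 9.27 and 8.04 FPKM in R1W and at 11.8, 6.58, 8.16 and 5.90 in R2W. Birc5 stood at 7.37, 10.1, 9.89 and 8.50 FPKM at 1 week, at 11.6, 6.01, 9.34 and 7.02 at 2 weeks and at 4.48, 6.89, 6.71 and 3.56 at 4 weeks. None of these values reached the UUO7 libraries, and none fell to the sham libraries. Kif11 stood at 1.03, 1.49, 1.08 and 0.920 FPKM at 1 week, at 1.60, 1.06, 1.22 and 1.08 at 2 weeks and at 0.620, 1.28, 0.960 and 0.570 at 4 weeks. Foxm1 stood at 1.89, 2.41, 1.17 and 1.61 FPKM at 1 week, at 3.25, 1.51, 2.29 and 1.42 at 2 weeks and at 1.82, 1.65, 1.84 and 0.920 at 4 weeks. For Kif11 and Foxm1 the R1W and R4W libraries lay below UUO7, while R2W replicate 1 lay within the UUO7 range. Cenpe stood at 2.29, 2.46, 2.35 and 2.67 FPKM in R1W and at 1.36, 2.38, 2.52 and 3.13 in R2W, with overlap with UUO7 in both.

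At 1 week Mcm7, Pcna and Tyms overlapped UUO7, while Mcm3 and Uhrf1 lay below it. Mcm3 stood at 9.30, 11.8, 17.5 and 11.1 FPKM in R1W and at 14.2, 7.72, 12.0 and 8.97 in R2W. Mcm7 stood at 24.1, 30.1, 27.0 and 21.2 FPKM in R1W and at 23.8, 19.7, 28.8 and 24.4 in R2W. Pcna stood at 46.5, 62.2, 72.6 and 55.7 FPKM in R1W and at 54.7, 42.2, 50.6 and 43.8 in R2W. R1W replicate 3 was thus above every UUO7 library in Pcna and the highest of its group in Mcm3. Uhrf1 stood at 4.83, 7.40, 6.45 and 5.45 FPKM in R1W and at 6.95, 3.16, 6.90 and 5.01 in R2W, below UUO7 throughout. Tyms stood at 12.9, 14.5, 15.4 and 18.5 FPKM in R1W and at 14.2, 13.1, 16.7 and 14.4 in R2W, and only R1W replicate 4 reached the UUO7 range.

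Of the G1 to S genes, Ccne1 lay below the UUO7 range from week 1 and Cdk2 from week 2, while Mybl2 overlapped it throughout. Ccne1 stood at 1.23, 1.74, 1.35 and 1.22 FPKM at 1 week, at 1.65, 0.740, 1.52 and 0.990 at 2 weeks and at 0.910, 1.02, 1.15 and 0.700 at 4 weeks. Cdk2 stood at 10.3, 13.0, 12.9 and 12.1 FPKM in R1W and at 12.6, 8.65, 12.3 and 9.78 in R2W. Mybl2 stood at 1.94, 2.29, 1.44 and 1.71 FPKM at 1 week, at 2.32, 1.61, 2.28 and 1.30 at 2 weeks and at 1.59, 2.15, 1.94 and 1.70 at 4 weeks.

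**Figure D4:**
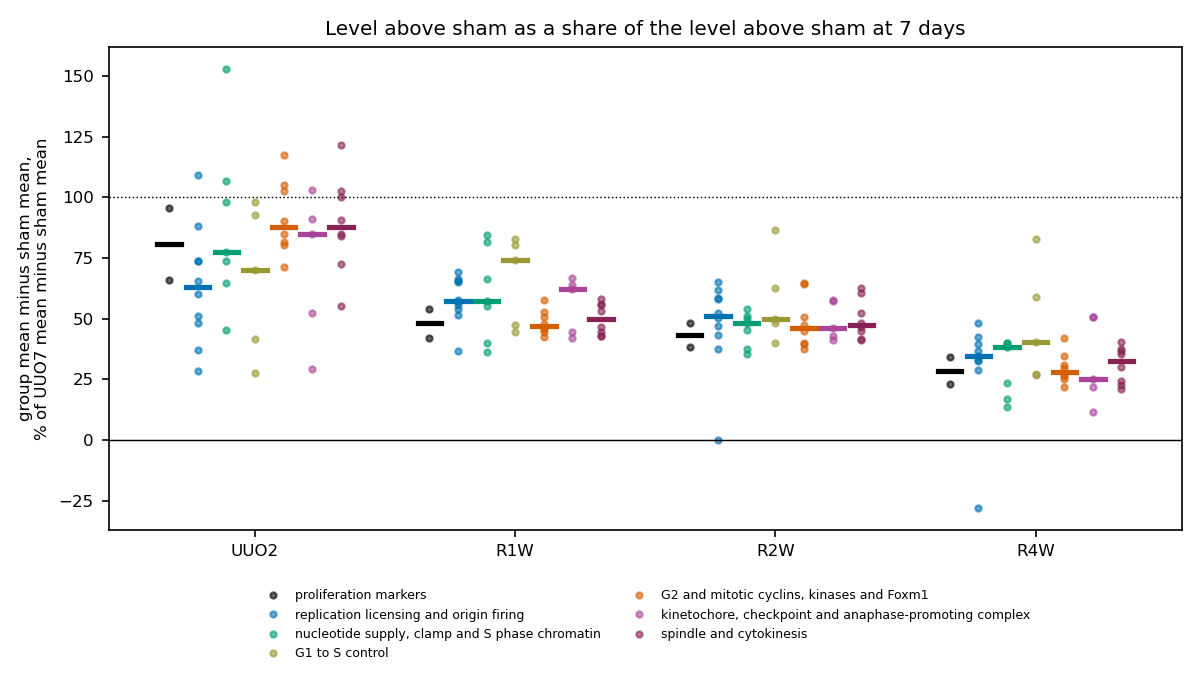
Group mean minus sham mean of each member as a percentage of the same difference in UUO7, for UUO2, R1W, R2W and R4W; points are members coloured by role and thick lines are medians of the role. The medians over all members are 81.4% in UUO2, 54.1% in R1W, 48.1% in R2W and 33.1% in R4W, and the point below 0 in R4W is Gmnn at -28.0%.

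A share of the 7-day rise was still present at 4 weeks. The median share over the members was 54.1% at 1 week, 48.1% at 2 weeks and 33.1% at 4 weeks, and 48.0%, 46.5% and 26.6% after rescaling. Against sham, 45 members were higher at 1 week (59.4% of all genes), 43 at 2 weeks (56.1%) and 40 at 4 weeks (54.8%). After rescaling the counts were 38 (33.7%), 37 (31.1%) and 33 (28.9%). A minimum log2 difference of 1 gave smaller counts, listed in the closing section. Of the 27 members detected in sham, 27, 26 and 23 were higher at 1, 2 and 4 weeks, beside 56.1%, 52.7% and 51.4% of genes of that kind. After rescaling they were 21, 21 and 17, beside 28.4%, 25.6% and 23.4%.

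At 4 weeks the largest differences from sham in log2(FPKM + 1) were in Uhrf1, Mcm3, Top2a and Cdk1. That scale understates changes of low genes, such as Cenpf (1.28 FPKM in R4W against 0.158 in sham) and Aurkb (2.25 against 0.388 FPKM). Uhrf1 stood at 3.70, 6.60, 5.15 and 2.77 FPKM in R4W and Mcm3 at 7.50, 11.6, 9.10 and 6.26, all above the sham libraries given above. Cdk1 stood at 5.50, 8.95, 7.09 and 4.52 FPKM and Ube2c at 4.42, 6.26, 5.88 and 1.96, again above all sham libraries. The log2 differences from sham were 1.66 for Uhrf1, 1.62 for Mcm3, 1.61 for Top2a, 1.48 for Cdk1, 1.42 for Ube2c, 1.23 for Birc5 and 1.11 for Mki67, with limma adjusted p from 5.35e-06 to 8.59e-05. Pcna at 43.2, 45.7, 44.0 and 35.6 FPKM was 0.69 above sham, and Cdk2 at 9.82, 11.5, 10.8 and 10.1 FPKM was 0.66 above. Mcm7, at 17.7, 18.8, 22.5 and 17.0 FPKM, was 0.58 above sham as deposited, and 0.23 and not called after rescaling. Mybl2 was 0.42 above sham, and 0.20 and not called after rescaling.

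The members not called at 4 weeks were Cdc45, a subunit of the active helicase, Gmnn, Tyms, Ccne2 and Cenpe. Gmnn stood at 13.0, 15.2, 14.7 and 16.9 FPKM in R4W, at 17.5, 17.7, 16.9 and 16.7 in R2W and at 17.4, 19.5, 26.8 and 22.9 in R1W. Its R4W mean of 14.96 FPKM was the only member mean below sham, with a log2 difference of -0.19 that was not called as deposited and of -0.55 (limma adjusted p = 0.000212) that was called lower after rescaling, as 31.1% of all genes were. Tyms stood at 11.3, 12.6, 13.4 and 10.2 FPKM in R4W and Cenpe at 0.630, 1.66, 2.25 and 1.28, both overlapping sham.

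Between neighbouring weeks of recovery no member was called, and between week 1 and week 4 some were. Means fell in the order R1W, R2W, R4W for 31 of 45 members, an order that 37.1% of all genes had, and the R4W mean was below the R1W mean for 44 members (59.0% of all genes), with Mybl2, at 1.85 FPKM in each, the exception. Limma called 0 members lower at 2 weeks than at 1 week, beside 0.00676% of all genes, and the authors' deposited table called 0 members (0.0411% of genes). At an unadjusted limma p under 0.05, 1 member and 11.7% of all genes were lower at 2 weeks. Limma also called 0 members lower at 4 than at 2 weeks, beside 0.0203% of all genes, and the authors' deposited table called 0 (0.551% of genes). Here 16 members and 5.51% of all genes were lower at an unadjusted limma p under 0.05. From week 1 to week 4, 13 members were lower (14.1% of all genes), among them Ube2c by 0.81, Top2a by 0.69, Gmnn by 0.49 and Pcna by 0.47 on the log2 scale. The R4W libraries of Ube2c, Top2a, Gmnn and Pcna lay below all R1W libraries. That count was 7 after rescaling (8.60% of genes), 18 in the authors' deposited table (9.13%), 0 in a fit of those 2 groups alone, and 0 without the 3 libraries rich in adipocyte RNA. It fell to 1 without R1W replicate 3, without R4W replicate 1 or without R4W replicate 4. The count was 3 without R1W replicate 2 and 5 without R1W replicate 4. Shares of all genes in the fits with fewer libraries are not given here, so a loss of calls cannot be ascribed to the members alone. Of the 27 members detected in sham, 9 were lower at week 4 than at week 1 (14.2% of genes of that kind), and 4 after rescaling (8.35%).

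Among recovering animals many members were highest or lowest in the same animals. R2W replicate 1 was the highest of its group for 36 of 45 members (42.2% of all genes) and R2W replicate 2 the lowest for 37 (53.9%). R4W replicate 2 was the highest for 33 (34.0%), R4W replicate 4 the lowest for 37 (41.3%), and R1W replicate 2 the highest for 36 (44.4%). After rescaling these counts were 33 (31.1% of all genes), 31 (35.8%), 32 (26.1%), 35 (33.5%) and 25 (27.6%). Top2a shows the pattern, at 12.8 and 6.97 FPKM in R2W replicates 1 and 2 and at 8.01 and 3.35 FPKM in R4W replicates 2 and 4. R4W replicate 2 is the library whose labels conflict.

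Markers of other cells also differed between these libraries, in part in another order than the members. Macrophage markers, 8 of 8 with a row and none at 0, summed to 2351 FPKM in R2W replicate 1 and 962 in R2W replicate 2, and to 1584 FPKM in R4W replicate 2 and 797 in R4W replicate 4. Injured tubule markers, 5 of 5 with a row, summed to 584 and 258 FPKM and to 305 and 200 FPKM in the same libraries. R1W replicate 2 had the highest macrophage, injured tubule and fibroblast sums of its group, at 1627, 721 and 456 FPKM. Proximal tubule sums were lowest of their group in R1W replicate 2 and R4W replicate 2, at 1248 and 1932 FPKM, and highest in R2W replicate 2 and R4W replicate 4, at 2474 and 2650 FPKM. The highest injured tubule sum of R2W was in replicate 3, at 780 FPKM, and so was its highest fibroblast sum, at 526 against 508 FPKM in replicate 1. In R4W replicate 3 had the highest fibroblast and lymphocyte sums, at 367 and 66.8 FPKM, against 339.99 and 51.0 FPKM in replicate 2. Between groups the order differed. Macrophage sums were 56.8 to 99.7 FPKM in sham, 133 to 269 in UUO2, 1209 to 1439 in UUO7, 1167 to 1627 in R1W, 962 to 2351 in R2W and 797 to 1584 in R4W. Injured tubule sums were 5.42 to 21.2 FPKM in sham, 673 to 1140 in UUO2, 1375 to 1726 in UUO7, 473 to 721 in R1W, 258 to 780 in R2W and 200 to 305 in R4W, and UUO2 replicate 2, lowest for most members, had the lowest UUO2 sum. Fibroblast markers, 6 of 6 with a row, summed to 30.0 to 71.0 FPKM in sham, 97.3 to 189 in UUO2, 511 to 663 in UUO7 and 239 to 367 in R4W. Lymphocyte markers, 5 of 8 with a row and none at 0, summed to at most 2.95 FPKM in sham and UUO2, to 9.07 to 16.2 in UUO7 and to 22.0 to 66.8 in R4W. The part of any of these cells in the members' levels was not tested.

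**Figure D5:**
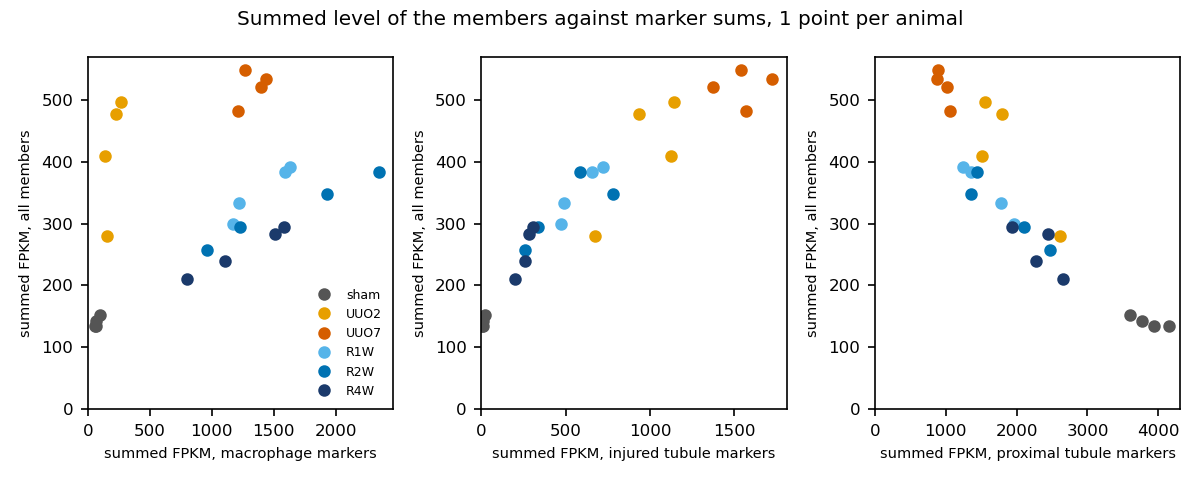
Summed FPKM of the 45 members (vertical axis) against summed FPKM of macrophage, injured tubule and proximal tubule markers (horizontal axes), 1 point per animal and coloured by group. The UUO2 animals reach 279.7 to 496.8 FPKM of members at macrophage sums of 133 to 269 FPKM, and the recovering animals hold 209.6 to 391.2 FPKM at macrophage sums of 797 to 2351 FPKM.

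Genes of the same pathways outside the set were for the most part higher at 7 days too, when 60.1% of all genes were higher and 17.8% lower, or 36.5% each after rescaling. Of 37 other replication genes, 34 were higher at 7 days than in sham and 2 did not pass, with a median of 0.89, and after rescaling 28 were higher. Lig1, the ligase that joins Okazaki fragments, was 16.1 FPKM in UUO7 against 2.31 in sham (log2 difference 2.38), and Pold1, the catalytic subunit of DNA polymerase delta, 22.1 against 4.07 FPKM (2.20). E2f2, at 1.69 and 1.38 FPKM, and Mcm10, at 3.97 and 3.83 FPKM, did not pass. The genes of this list called lower after rescaling are not given in full here, and Mcm10, Rpa1 and Orc2 were among them. Rpa1 turned from 0.24, called higher, to -0.23, and Orc2 from 0.21, called higher, to -0.21. Both were named after their values were seen. Of 40 other mitosis genes, 36 were higher, 1 was lower and 3 did not pass, with a median of 1.59, and after rescaling 34 were higher and 2 lower. As with the members, 15 of these 40 genes and 5 of the 37 had a sham mean under 1 FPKM. Of those detected in sham, 21 of 25 and 29 of 32 were higher (57.0% of genes of that kind), and 19 and 23 after rescaling (31.5%). Cks1b, a subunit of cyclin-dependent kinases, was 28.7 against 3.42 FPKM (2.75), and Cenpa, the histone variant of centromeres, 14.3 against 2.06 FPKM (2.31). Cks2 (49.0 and 44.3 FPKM), Spag5 (3.80 and 3.83 FPKM) and Spc25 (14.5 and 12.7 FPKM) did not pass, and Cks2 was called lower after rescaling. The lower gene was Kif20b, a kinesin of cytokinesis, at 5.78 against 18.9 FPKM (-1.47). Kif20b was named after its values were seen.

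The list of G1 cyclins, their kinases, pocket proteins and CDK inhibitors had a median of 0.61 at 7 days, beside 0.42 for all genes. Of 24 genes, 19 were higher at 7 days and 3 lower, beside 60.1% and 17.8% of all genes, and 2, E2f5 and Lin54, did not pass. After rescaling 12 were higher and 5, E2f5 and Lin54 among them, lower, beside 36.5% of all genes each. Of the 23 genes detected in sham, 18 were higher (57.0% of genes of that kind), and 11 after rescaling (31.5%). The largest differences were in Cdkn1a (p21), which inhibits cyclin-dependent kinases, at 41.6 FPKM in UUO7 against 3.80 in sham (log2 difference 3.22), and in Pkmyt1, the kinase that holds Cdk1 inactive, at 8.58 against 0.833 FPKM (2.40). The lower genes, named after their values were seen, were Ccnd1 (cyclin D1, 36.5 against 44.99 FPKM), Rbl2 (the pocket protein p130, 13.6 against 18.4 FPKM) and Lin52 (6.02 against 7.81 FPKM). At 4 weeks against sham, 28 of 37 other replication genes, 32 of 40 other mitosis genes and 17 of 24 genes of the G1 list were higher, beside 54.8% of all genes. After rescaling 12, 25 and 10 were higher, beside 28.9%, so that the share of the replication list was near that of all genes. Of the genes detected in sham, 23 of 32, 17 of 25 and 16 of 23 were higher (51.4% of genes of that kind), and 7, 12 and 9 after rescaling (23.4%). The lower genes of the replication list are not given in full here, and Rfc2, Orc2 and Mcm10 were among them after rescaling. Lower at 4 weeks were Spc25, Kif20b and Cks2 of the mitosis list and 0 of the G1 list, beside 11.6% of all genes, and after rescaling Nek2 of the mitosis list and E2f5, Rbl2, Ccnd3 and Lin52 of the G1 list as well, beside 31.1%. Ccnd3 was called higher as deposited. The names of these lower genes were chosen after seeing the values.

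The authors' own fold changes gave similar counts of members for obstruction. Compared with sham, the authors' deposited table held 43 higher members in UUO2 (26.7% of genes with a p) and 43 in UUO7 (35.8%), with median log2 fold changes of 2.25 and 2.10. For recovery against UUO7 the authors' deposited table held 36, 41 and 44 lower members at 1, 2 and 4 weeks (11.2%, 17.3% and 27.3% of genes). Against sham it held 40, 40 and 34 higher members (31.9%, 30.7% and 30.9%), with Gmnn lower at 2 weeks (35.4% of genes), and Gmnn and Tyms lower at 4 weeks (34.8%). Exons of 12 members overlap a gene on the opposite strand, Gins2 by as much as 2758 bases, and whether reads were counted by strand is not given in the sources used here, so reads of the paired genes may be mixed in those values.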

How the data were processed

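PolyA-selected RNA of 24 kidneys was sequenced as paired reads, per the labels' protocols. FastQC, RSEM, Bowtie2 and DESeq2 are named with build mm10 per the submitters' processing notes. The authors deposited a table of 14785 genes whose unit is not stated. FPKM was inferred for the deposited values, since columns summed to 717415 to 830179 and the sum weighted by transcript length varied less, by 1.08 against 1.16 times. The smallest gene mean was 1. The table also holds the authors' log2 fold changes and adjusted p-values, copied as deposited.

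Members and gene lists were chosen with earlier results of these data known. All genes were tested on log2(FPKM + 1), which understates changes of low genes, with limma 3.58.1 in R 4.3.3 (trend, all 24 libraries, a coefficient per group). A call is a Benjamini-Hochberg adjusted p under 0.05 over 14785 genes. SE is limma's. In the alternative scaling each library was divided by the median, over genes, of its ratio to the geometric mean of the gene (mean factor 0.814 in sham, 0.894 in UUO2, 1.14 in UUO7). In simulated data with 200 genes changed by 2 on the log2 scale, limma called 195 of them and 13 of the others. Noise was drawn for each gene separately, and smaller changes or shifts of many genes together were not simulated. Recovery and obstruction comparisons share the sham or UUO7 libraries. Animals are separate per the design text, and replicate numbers come from the titles.

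Named with values in every library were Mki67, Top2a and, for each role list, the member with the highest mean and those with the largest and smallest log2 difference between UUO7 and sham; of other lists, the 2 largest changes called and up to 3 genes not called. Motif words were searched in RefSeq promoter windows (GRCm38.p6). Coordinates are the deposited ones (mm10). Marker lists held 4 to 8 genes. Alternatives were other scalings, pseudocounts, minimum means, call rules, fits and samples. The result of 1 gene of the other replication list is not reported here.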

Additional observations from a re-analysis of the deposited data

Results flagged for a closer look

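Of 102 checks of the 17 named members in each of 6 groups, 2 found a library apart from the other 3 of its group by Dixon's 95% value, where chance alone would give about 5.1. Pcna in UUO7 replicate 3 was 69.0 FPKM, and the other UUO7 libraries lay between 65.98 and 66.26 FPKM. Uhrf1 in sham replicate 3 was 1.03 FPKM, and the other sham libraries lay between 0.56 and 0.62 FPKM.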

How the results depend on the processing

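Scaling, single libraries and the choice of fit changed counts of members. The unknown depth of UUO2 and its place apart limit the comparisons with it. Counts in this section stand without the shares of all genes, so they do not show whether the members exceed other genes. Limma calls of members higher than sham in UUO2 (42) and UUO7 (45) stayed the same in number without any single replicate. The other counts with a replicate left out ranged from 9 to 16 for UUO7 against UUO2, 14 to 30, 25 to 41 and 41 to 43 for R1W, R2W and R4W against UUO7, 44 to 45, 42 to 44 and 37 to 41 for R1W, R2W and R4W against sham, 0 to 1 for R2W against R1W, 0 to 0 for R4W against R2W, and 1 to 16 for R4W against R1W.

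Rescaling gave 4 higher members in UUO7 against UUO2, where the authors' deposited table has 2, and 7 lower members in R4W against R1W. A minimum mean of 5 FPKM left 22 members to test and counts of 21 for UUO2 and 22 for UUO7 against sham, 13, 21 and 22 for R1W, R2W and R4W against UUO7, and 22, 21 and 20 for R1W, R2W and R4W against sham. An adjusted p under 0.01 gave 8 for UUO7 against UUO2, 11 and 23 for R1W and R2W against UUO7, and 1 for R4W against R1W. A minimum log2 difference of 1 gave 0 for UUO7 against UUO2, 1, 5 and 17 for R1W, R2W and R4W against UUO7, 25, 22 and 14 for R1W, R2W and R4W against sham, and 0 for R4W against R1W. With that minimum and rescaling, an alternative chosen after seeing the data, the counts were 0, then 1, 1 and 15, then 15, 14 and 6, and 0. The 13 lower members of R4W against R1W became 8 with a pseudocount of 10, 0 in a fit of the 2 groups alone, and 0 without the libraries rich in adipocyte markers, also chosen after seeing the data. The cause was not tested, and these counts were not set beside the shares of all genes under the same rules.

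Replicate numbers were not treated as pairs. The mean correlation of same-numbered libraries' deviations lay between -0.174 and 0.148 over the comparisons. Single correlations ranged from -0.474 (R2W against R1W) to 0.451 (R1W against UUO7), and so few libraries cannot exclude a pairing. With the replicate block, R4W against R1W had 8 lower members in place of 13, R1W against UUO7 24 in place of 26, and UUO7 against UUO2 13 higher in place of 14. Placing R4W replicate 2 in R2W gave 17 lower members in R4W against R1W.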
